A study of Homo sapiens with 4 samples.

Results

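The MYC, MAX and MXD network was described in MDA-MB-231, a widely used line of human triple-negative breast cancer cells, through the 10 genes MYC, MAX, MXD1, MXI1, MXD3, MXD4, MNT, MGA, MLX and MLXIP. These genes were chosen by name, all 10 were found among the 58735 genes of the deposited count table, and all 10 were among the 14585 genes kept with a mean of at least 1 CPM (reads scaled to a common library size). All cells carried a TetOn-H2BeGFP reporter, which was induced with doxycycline at 5 μg/ml for 3 days, and they were also labelled with Claret and Violet dyes and chased for 12 days, so that dividing cells diluted their label. The 3 slow-cycling groups, Claret, eGFP and Violet, were the 1% of cells that retained most of the named label, and the Bulk group was sorted from the same labelled cells with no fluorescence gate. Each group is 1 library, so no difference reported below has a replicate check. The sample titles and the treatment field of the labels name different sorts in every sample. Libraries are called here by their titles, and with the treatment field the library called Bulk is Claret, Claret is eGFP, eGFP is Violet and Violet is the ungated one. Grouped by that field, directions given below turn in many comparisons (MYC in Claret against Bulk becomes -0.68 on the log2 scale).

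MYC is a basic helix-loop-helix transcription factor that binds E-box DNA as a dimer with MAX and activates genes of growth, ribosome assembly and the cell cycle. The MXD proteins (MXD1, MXI1, MXD3 and MXD4), MNT and MGA also pair with MAX at E-boxes, but recruit repressors of transcription, so they are known as antagonists of MYC. MLX is another partner protein, which pairs with MXD1, MXD4 and MNT and with the nutrient-sensing factors MLXIP (also called MondoA) and MLXIPL (ChREBP). In cells that leave the cycle, a textbook pattern is loss of MYC with a gain of MXD proteins, while MXD3 is the member known from dividing cells in S phase.

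The libraries held 15508179 to 16976909 reads. The MDA-MB-231 markers VIM and CD44 had 5303 to 18488 reads and KRT18 had 2690 to 3287, while ESR1, PGR and CDH1, the estrogen receptor, progesterone receptor and E-cadherin genes, had 0 to 7. The epithelial gene EPCAM, listed as near 0 in this line, had 28 to 61 reads. For other cell types, PTPRC and COL3A1 had 0 to 3 reads and the endothelial gene PECAM1 had 54 to 87. Reads of the proliferation gene MKI67 were 6778 in Bulk and lay between 689 and 995 in the slow-cycling libraries. In RNA from sorted populations, fewer cells that express a gene and less RNA of it per cell cannot be told apart.

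MYC itself was higher in the slow-cycling libraries than in Bulk. Its gene lies on chromosome 8 (127735434 to 127741434, + strand, GRCh38, ENSG00000136997) and shares no exon base with another gene. MYC had 1954 (Bulk), 3748 (Claret), 3404 (eGFP) and 3131 (Violet) reads. Levels are given in deposited FPKM, fragments scaled to library size and to a gene length that counts every annotated exon base. The isoforms in use were not measured, which limits comparisons of level between genes. The level of MYC was 41.9 (Bulk), 73.6 (Claret), 71.0 (eGFP) and 65.0 (Violet) FPKM. The lowest slow-cycling value was thus above Bulk, and the counting intervals of Bulk (40.1 to 43.8) and Violet (62.7 to 67.3), the nearest pair, did not overlap. On the scale of log2 CPM after TMM (trimmed mean of M-values) scaling, the difference from Bulk was 0.83 for Claret (95% interval 0.75 to 0.91), 0.79 for eGFP (0.71 to 0.87) and 0.68 for Violet (0.60 to 0.76). These differences, at most 1.78-fold, stayed under the 2-fold limit that a call requires here. They passed an exact conditional binomial test on the reads, with an adjusted p of 9.53e-61 or less. That test compares 2 libraries and not the conditions behind them, and its intervals cover counting error only. Of all genes kept, 14.5% had a larger ratio to Bulk than MYC in Claret, 16.4% in eGFP and 19.1% in Violet.

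MAX, the shared partner of MYC and of its antagonists, was close to level and slightly lower. The gene lies on chromosome 14 (65006174 to 65102695, - strand). MAX had 627 (Bulk), 581 (Claret), 562 (eGFP) and 538 (Violet) reads, or 9.11, 7.73, 7.94 and 7.56 FPKM. The log2 difference from Bulk was -0.22 for Claret, -0.17 for eGFP and -0.22 for Violet. By the exact test the adjusted p was 0.0140 for Claret, 0.0598 for eGFP and 0.0156 for Violet, so only the Claret and Violet values passed at 0.05, and with a filter at 10 CPM none did (-0.15 in Claret, -0.14 in Violet). In every library the FPKM of MYC by itself, without its antagonists, was above that of MAX. The summed FPKM of MYC and its 6 antagonists was 7.78 times that of MAX in Bulk. It was 14.2, 13.7 and 13.5 times that of MAX in Claret, eGFP and Violet. These are ratios of RNA levels, not of proteins.

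**Figure D1:**
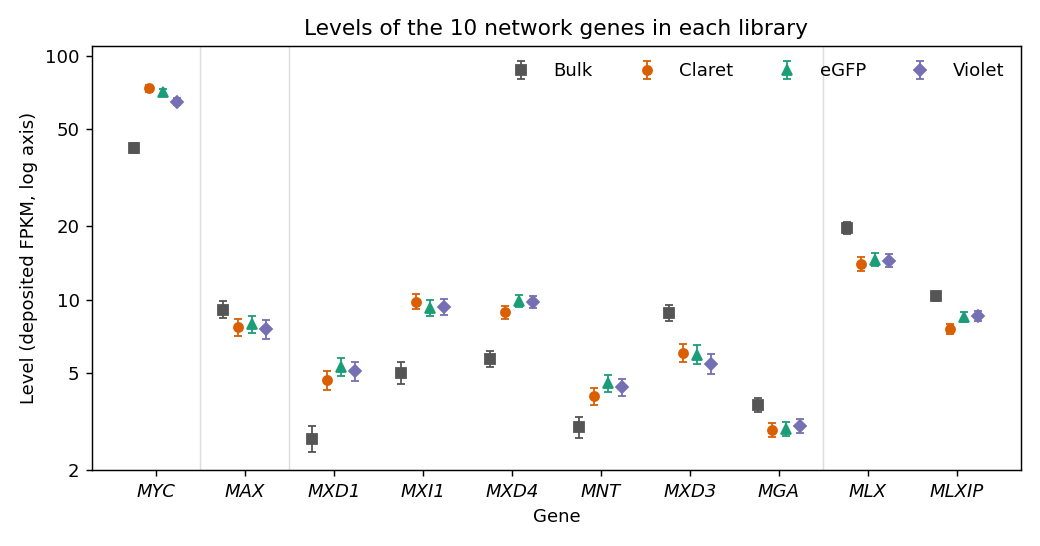
Level of each of the 10 network genes in deposited FPKM (log axis) in the 4 libraries, 1 point per library, with 95% exact Poisson intervals that cover counting error only; vertical lines separate MYC, MAX, the 6 antagonists and the MLX branch. MYC is highest in every library (41.9 FPKM in Bulk, 65.0 to 73.6 in the others), and Bulk is the lowest of the 4 libraries for MYC, MXD1, MXI1, MXD4 and MNT and the highest for the other 5 genes.

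The 6 antagonists did not move together. MXD1, MXI1, MXD4 and MNT were higher than Bulk in all 3 slow-cycling libraries, and MXD3 and MGA were lower in all 3, each beyond counting error.

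MXD1, a MAX-binding repressor induced when many cell types differentiate, had 265 (Bulk), 504 (Claret), 538 (eGFP) and 519 (Violet) reads. The gene lies on chromosome 2 (69897688 to 69942945, + strand). Its level was 2.68, 4.68, 5.30 and 5.09 FPKM in that order, so it was the lowest of the 10 genes in Bulk. The log2 difference from Bulk was 0.81 for Claret (interval 0.60 to 1.04), 1.00 for eGFP (0.79 to 1.23) and 0.97 for Violet (0.75 to 1.19). The eGFP value lies on the 2-fold limit and is the only call among the 10 genes. That call is lost on the scale log2(FPKM + 1), where the added 1 shrinks ratios of low-level genes most.

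MXI1, the gene of the protein also called MXD2, had 360 (Bulk), 769 (Claret), 682 (eGFP) and 693 (Violet) reads. It lies on chromosome 10 (110207605 to 110287365, + strand). Its level was 5.03 FPKM in Bulk and 9.26 to 9.84 in the slow-cycling libraries. All 3 slow-cycling values lay close together and above Bulk, with log2 differences of 0.98 (interval 0.80 to 1.17), 0.91 (0.72 to 1.10) and 0.94 (0.76 to 1.13) in Claret, eGFP and Violet.

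MXD4, another MAX-binding repressor of the MXD group (chromosome 4, 2247432 to 2262294, - strand), had 628 (Bulk), 1063 (Claret), 1117 (eGFP) and 1110 (Violet) reads. In FPKM this was 5.72 (Bulk), 8.87 (Claret), 9.90 (eGFP) and 9.80 (Violet). The log2 difference was smaller in Claret (0.65, interval 0.51 to 0.80) than in eGFP (0.82, 0.68 to 0.96) or Violet (0.82, 0.68 to 0.97). MNT, a widely expressed antagonist that recruits SIN3 (chromosome 17, 2384060 to 2401118, - strand), had 407 (Bulk), 595 (Claret), 635 (eGFP) and 614 (Violet) reads, or 3.00, 4.02, 4.55 and 4.38 FPKM. Its log2 difference of 0.44 for Claret, 0.63 for eGFP and 0.59 for Violet was the smallest among the 4 antagonists that were higher. MNT shares 12.2% of its exon bases with AC006435.1, which had 0 reads in every library.

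MXD3 (chromosome 5, 177301461 to 177312757, - strand) went the other way. It had 709 (Bulk), 529 (Claret), 490 (eGFP) and 451 (Violet) reads, or 8.85, 6.05, 5.95 and 5.45 FPKM. In Bulk it was thus the highest antagonist, and in each slow-cycling library MXI1 and MXD4 lay above it. The log2 difference was -0.53 for Claret (interval -0.70 to -0.37), -0.54 for eGFP (-0.71 to -0.38) and -0.65 for Violet (-0.83 to -0.48). Of the exon bases of MXD3, 40.4% are shared with PRELID1 on the opposite strand or RAB24 on the same strand. The library kit named in the labels does not mark strand, so reads in those bases cannot be assigned with certainty. PRELID1 was lower as well (-0.89, -0.88 and -1.02) and RAB24 was higher (0.72, 0.71 and 0.65), and the share of these genes in the MXD3 counts was not tested.

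MGA, a large protein with both a T-box and a MAX-pairing domain that belongs to a polycomb complex (chromosome 15, 41621224 to 41773081, + strand), had 1017 (Bulk), 878 (Claret), 835 (eGFP) and 863 (Violet) reads. Its level was 3.71 FPKM in Bulk and 2.93 to 3.05 in the others. The log2 differences of -0.32, -0.30 and -0.24 in Claret, eGFP and Violet were smaller in size than those of MXD3.

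The genes of the parallel branch were lower. MLX (chromosome 17, 42567068 to 42573239, + strand) had 1306 (Bulk), 1015 (Claret), 994 (eGFP) and 989 (Violet) reads, or 19.7, 14.0, 14.6 and 14.5 FPKM, with log2 differences of -0.47, -0.41 and -0.40. Only MYC had a higher level in each of the 4 libraries. Of its exon bases, 18.1% are shared with PSMC3IP on the opposite strand, which was itself lower by more (-2.04, -2.08 and -2.13), and what this contributes to the MLX counts was not tested. MLXIP (chromosome 12, 122078722 to 122147347, + strand), which shares no exon base with another gene, had 2238 (Bulk), 1794 (Claret), 1894 (eGFP) and 1921 (Violet) reads, with log2 differences of -0.43, -0.25 and -0.22. In FPKM it had 10.4, 7.60, 8.52 and 8.60.

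**Figure D2:**
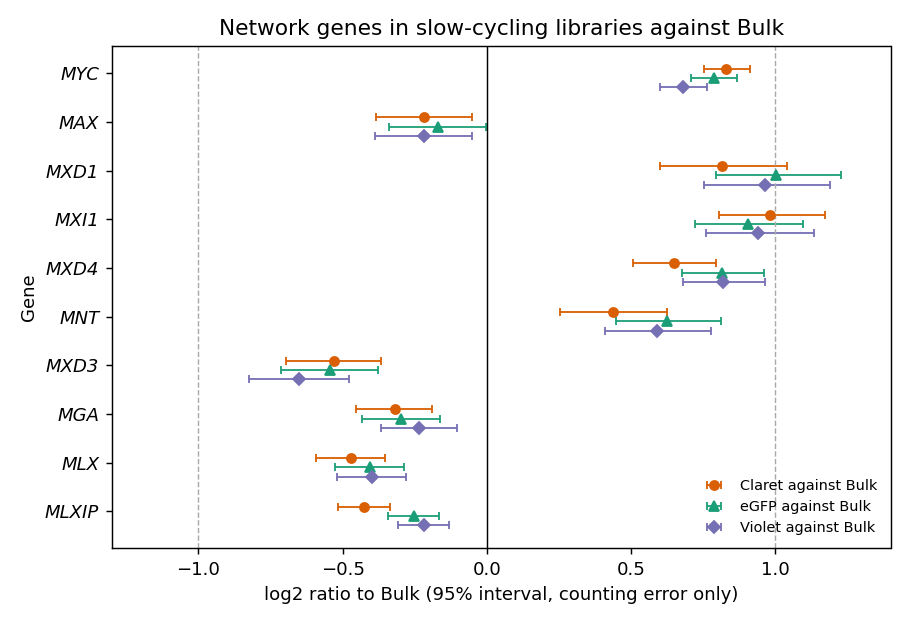
Log2 ratio of each network gene to Bulk (x axis, TMM-scaled CPM) in Claret, eGFP and Violet, with 95% exact intervals for counting error; dashed lines mark the 2-fold limit. MYC, MXD1, MXI1, MXD4 and MNT lie to the right of 0 (0.44 to 1.00), the other 5 to the left (-0.65 to -0.17), and all points but MXD1 in eGFP lie within the dashed lines.

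Among the 10 genes, the 2-fold calls of higher genes numbered 0 for Claret, 1 for eGFP and 0 for Violet, and 0 were lower in any, where 11.2%, 11.9% and 11.6% of all genes kept were called higher and 6.72%, 7.64% and 6.91% lower. At 1.5-fold with the same exact test, 4 genes were higher in Claret (MYC, MXD1, MXI1 and MXD4) and 5 in eGFP and in Violet (with MNT), against 19.8%, 20.5% and 20.8% of all genes. MXD3 in Violet was the only gene lower at 1.5-fold, against 16.7%, 17.9% and 16.6% of all genes. With the test alone and no fold limit, 5 of 10 were higher in each library, where 33.3%, 33.8% and 34.5% of all genes were. By the same rule 5 were lower in Claret, 4 in eGFP and 5 in Violet, against 35.5%, 36.1% and 34.9%. The median size of the log2 ratio was 0.50, 0.59 and 0.62 over the 10 genes and 0.44, 0.46 and 0.45 over all genes kept, in Claret, eGFP and Violet. The 3 comparisons share the Bulk library, so their likeness is not independent evidence.

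MYC was then set against each antagonist within a library, since a ratio of reads inside 1 library does not depend on how libraries are scaled. These contrasts have no test, and their intervals are not adjusted for the number of contrasts. Relative to MXD1, MXI1, MXD4 and MNT, MYC moved by 0.39 or less in size on the log2 scale, and relative to MXD3 and MGA it gained 0.92 or more. The log2 of the ratio of MYC reads to MXD1 reads, relative to Bulk, was 0.01 for Claret (95% exact interval -0.22 to 0.24), -0.22 for eGFP (-0.45 to 0.01) and -0.29 for Violet (-0.52 to -0.06). Against MXI1 it was -0.16 for Claret (-0.36 to 0.04), -0.12 for eGFP (-0.33 to 0.08) and -0.26 for Violet (-0.47 to -0.06). In Violet, MYC thus stood lower relative to MXD1 and MXI1 than in Bulk, with intervals below 0, and in Claret and eGFP the intervals include 0.

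Against MXD4 the value was 0.18 for Claret (0.01 to 0.35), -0.03 for eGFP (-0.19 to 0.13) and -0.14 for Violet (-0.31 to 0.02). Against MNT it was 0.39 for Claret (0.19 to 0.59), 0.16 for eGFP (-0.04 to 0.36) and 0.09 for Violet (-0.12 to 0.29). In Claret, the intervals for both of these antagonists lay above 0, for MXD4 only just. They are not adjusted for the number of contrasts. MYC gained most on MXD3, by 1.36 for Claret (1.18 to 1.55), 1.33 for eGFP (1.15 to 1.52) and 1.33 for Violet (1.14 to 1.53), and by 1.15, 1.09 and 0.92 on MGA. Relative to its partner MAX the gain was 1.05 for Claret (0.87 to 1.23), 0.96 for eGFP (0.77 to 1.14) and 0.90 for Violet (0.71 to 1.09). Relative to MLX it was 1.30, 1.19 and 1.08, and relative to MLXIP 1.26, 1.04 and 0.90.

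**Figure D3:**
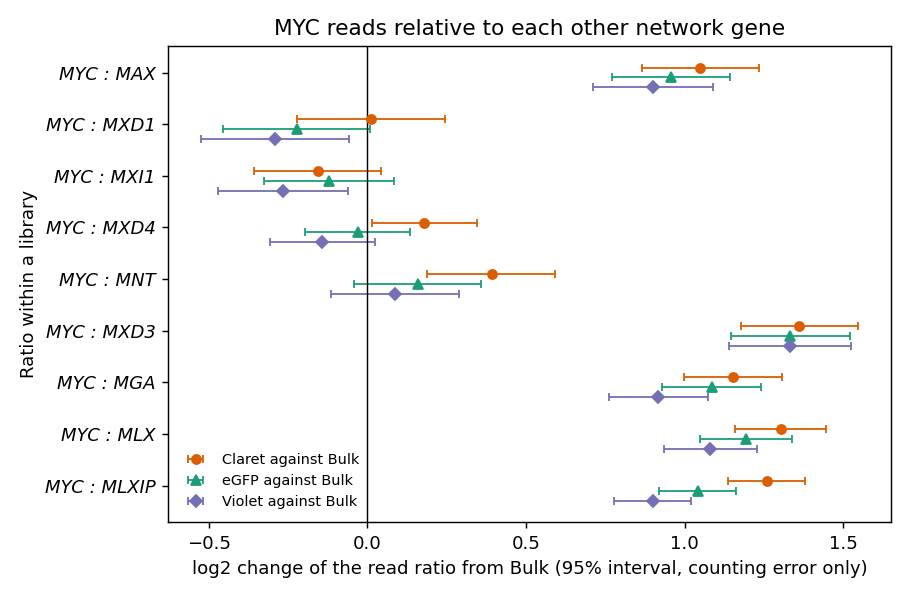
Log2 change from Bulk of the ratio of MYC reads to the reads of each other network gene (x axis), in Claret, eGFP and Violet, with 95% exact conditional intervals for counting error. The ratios to MXD1, MXI1, MXD4 and MNT lie between -0.29 and 0.39, and those to MAX, MXD3, MGA, MLX and MLXIP between 0.90 and 1.36.

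Summed over the 6 antagonists, the level was 28.996 (Bulk), 36.4 (Claret), 37.9 (eGFP) and 37.1 (Violet) FPKM. MYC was 1.44 times that sum in Bulk, 2.02 times in Claret, 1.87 times in eGFP and 1.75 times in Violet. Without MXD3, whose counts are uncertain, these ratios were 2.08, 2.43, 2.22 and 2.05, so that Violet then lay just below Bulk while Claret and eGFP stayed above it. The makeup of the antagonist pool also differed. MXD3 and MGA held 43.3% of the summed antagonist FPKM in Bulk, against 24.7%, 23.5% and 22.9% in Claret, eGFP and Violet. Within the 4 MXD genes the share of MXD3 was 39.7% in Bulk and 20.5%, 19.6% and 18.3% in the others.

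**Figure D4:**
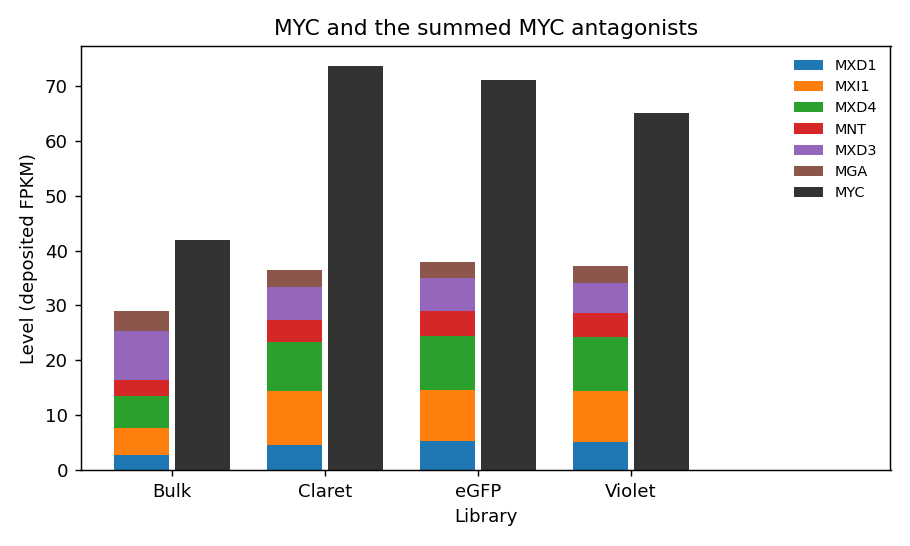
FPKM of MYC (dark bars) beside the stacked FPKM of its 6 antagonists in the 4 libraries, from 1 library each and so with no error bar. MYC goes from 41.9 in Bulk to between 65.0 and 73.6, and the summed antagonists from 28.996 to between 36.4 and 37.9, with a smaller MXD3 band in the slow-cycling libraries.

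The order of levels per length was compared within each library. MYC was highest and MLX next in all 4, each apart from the next gene beyond its counting interval. In Bulk, MLXIP (10.4 FPKM), MAX (9.11) and MXD3 (8.85) followed, where MAX and MXD3 had overlapping intervals, and MNT (3.00) and MXD1 (2.68) were last and also overlapped. In eGFP the next were MXD4 (9.90), MXI1 (9.26), MLXIP (8.52) and MAX (7.94), where each neighbour overlapped the next. MXD4 (9.80), MXI1 (9.37), MLXIP (8.60) and MAX (7.56) followed in the same way in Violet. Claret had MXI1 (9.84), MXD4 (8.87), MAX (7.73) and MLXIP (7.60) in those places, again with overlap between neighbours. MGA was last in each slow-cycling library, at 2.93 to 3.05 FPKM.

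The promoters of the network genes were searched for the DNA word that these proteins read, because 4 antagonists were higher together. RefSeq promoter windows (GRCh38.p14, 250 bases before to 50 after an annotated start) matched 9 of the 10 genes, all but MYC, with 14 windows. The E-box CACGTG, which reads the same on both strands, occurred in 3 genes, each with 1 window. They were MXD4, 238 bases before its start, MNT, 193 bases before, and MLX, 50 bases before. The E-box occurred in 7.26% of the 35116 RefSeq windows. MXD4 and MNT were higher than Bulk and MLX was lower. The AP-1 motif TGANTCA, searched on both strands, occurred in MXD3, 79 bases before the start, and in 7.71% of all windows. The FOXO motif GTAAACA occurred in windows of MXI1 and in 3.42% of all windows, and an E2F motif (TTTCCCGC or TTTGGCGC) in a window of MGA and in 2.27% of all. A match describes the letters only. The 4 stretches that hold an E-box or the AP-1 motif just before the start are shown as far as the first annotated exon, 5′ to 3′ on the gene's strand, with the motif in capitals: MXD4 at chr4:2262295-2262359 (- strand), MNT at chr17:2401119-2401310 (- strand), MLX at chr17:42566850-42567067 (+ strand) and MXD3 at chr5:177312758-177313002 (- strand).
MXD4: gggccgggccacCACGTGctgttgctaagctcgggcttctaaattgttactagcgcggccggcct
MNT: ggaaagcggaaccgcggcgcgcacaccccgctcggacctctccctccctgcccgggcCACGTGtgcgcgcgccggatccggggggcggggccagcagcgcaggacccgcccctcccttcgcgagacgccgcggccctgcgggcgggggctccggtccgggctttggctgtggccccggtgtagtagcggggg
MLX: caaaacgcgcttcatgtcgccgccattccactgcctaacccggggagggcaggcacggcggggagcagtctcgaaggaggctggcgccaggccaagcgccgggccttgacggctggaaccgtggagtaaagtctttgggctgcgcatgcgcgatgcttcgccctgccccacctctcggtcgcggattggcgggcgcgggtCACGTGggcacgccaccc
MXD3: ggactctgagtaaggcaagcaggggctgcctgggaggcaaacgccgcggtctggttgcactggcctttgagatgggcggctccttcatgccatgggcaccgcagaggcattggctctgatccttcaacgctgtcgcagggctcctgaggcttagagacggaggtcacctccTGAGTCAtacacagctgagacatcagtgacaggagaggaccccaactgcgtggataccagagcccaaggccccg

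Other genes of the family were weakly expressed. MYCN, a paralog of MYC, was at 0 reads in each of the 4 libraries, and 0 reads allow a level of up to 3 reads or at most 0.193 CPM. MYCL, the other paralog, had 14 (Bulk), 32 (Claret), 45 (eGFP) and 21 (Violet) reads, and only the eGFP value was called (log2 1.54, interval 0.78 to 2.65). MLXIPL, the paralog of MLXIP, had 22 (Bulk), 112 (Claret), 123 (eGFP) and 106 (Violet) reads. It was called higher in all 3 (2.14, 2.37 and 2.17), where 11.2%, 11.9% and 11.6% of all genes were. Its level was 1.37, 1.599 and 1.37 FPKM in those libraries, against 7.60, 8.52 and 8.60 FPKM for MLXIP.

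Proteins that work with the network were followed in 4 lists. Of the 11 cofactors of MYC, 0 were called at 2-fold in any library. Of all genes, 11.2%, 11.9% and 11.6% were called higher and 6.72%, 7.64% and 6.91% lower. With the test alone 10, 8 and 10 cofactors were lower in Claret, eGFP and Violet, against 35.5%, 36.1% and 34.9% of all genes. By that rule 0 were higher, against 33.3%, 33.8% and 34.5%. Their median log2 ratio was -0.49 for Claret, -0.55 for eGFP and -0.69 for Violet, where the median of all genes kept was -0.01, -0.01 and 0.01. The lowest cofactors were WDR5, which helps to seat MYC on chromatin (2069 reads in Bulk, 1160, 1136 and 1033 in Claret, eGFP and Violet; -0.94, -0.88 and -0.9996, just short of the limit), and SMARCB1, a subunit of the SWI/SNF remodeller (-0.75, -0.99 and -0.97). EP400, the ATPase of the TIP60 complex, and BPTF, a remodeller subunit, had the highest means of the 3 ratios, with values between -0.31 and -0.03.

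Of the 13 genes of the SIN3-HDAC and NCOR corepressors that MXD proteins and MNT recruit, 1 was called lower in each library, SAP30, a share close to the 6.72%, 7.64% and 6.91% of all genes called lower. SAP30 had 601 (Bulk), 237 (Claret), 193 (eGFP) and 195 (Violet) reads, with log2 ratios of -1.44, -1.64 and -1.61. RBBP4, a histone chaperone, was next by the mean of the 3 ratios (-0.63, -0.73 and -0.79). SIN3B, a scaffold of the complex, was higher beyond counting error in all 3 libraries (0.22, 0.38 and 0.26), and ING1 was at -0.11, 0.14 and 0.01. The list had a median of -0.44, -0.45 and -0.42.

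Among the 14 genes of the polycomb complex around MGA, 2 were called lower in all 3 libraries, against the same shares of all genes (6.72%, 7.64% and 6.91%). They were TFDP1, the dimer partner of E2F factors (3139 reads in Bulk, 1189, 1108 and 1091; -1.51, -1.51 and -1.52), and EHMT2, a histone methyltransferase (1733 reads in Bulk, 909, 823 and 799; -1.04, -1.09 and -1.11). RING1, a ubiquitin ligase of the complex, was at 0.22, 0.46 and 0.39 and YAF2 at 0.10, 0.13 and 0.22. The median of the list was -0.42, -0.57 and -0.46. WDR5, HDAC1 and HDAC2 stand in more than 1 of these lists.

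Genes that set the stability of MYC protein were followed because protein was not measured. Of 12, 3 were called lower in all 3 libraries, where 6.72%, 7.64% and 6.91% of all genes were lower. AURKA, a mitotic kinase also known to stabilize MYC family proteins, had 2560 reads in Bulk against 515, 410 and 449 in the slow-cycling libraries (-2.42, -2.65 and -2.51). CIP2A, an inhibitor of the phosphatase PP2A that protects MYC, had 1122 in Bulk and 188, 203 and 225 (-2.67, -2.47 and -2.31), and SKP2, a ubiquitin ligase for MYC, had 1198 and 402, 303 and 390 (-1.68, -1.99 and -1.61). FBXW7, the best known ubiquitin ligase for MYC, was at 0.13, 0.29 and 0.36, and CSNK2A1, a kinase subunit, at 0.24, 0.19 and 0.16. The median was -0.33, -0.21 and -0.25.

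Targets that MYC is known to activate were followed in 3 lists. Of 30 nucleolar and ribosome-assembly targets, 9 were called lower in Claret, 10 in eGFP, 11 in Violet, with 0 higher, where 6.72%, 7.64% and 6.91% of all genes were lower. With the test alone 29, 28 and 28 were lower, where 35.5%, 36.1% and 34.9% of all genes were. By that rule 0 were higher, against 33.3%, 33.8% and 34.5%. Their median was -0.73, -0.74 and -0.81. MRTO4 and GRWD1, both factors of ribosome assembly, had the lowest means of the 3 ratios. MRTO4 had 1317 (Bulk), 497 (Claret), 455 (eGFP) and 382 (Violet) reads (-1.51, -1.54 and -1.78), and GRWD1 had 1605, 568, 531 and 538 (-1.60, -1.60 and -1.57). PPAN (-0.20, 0.07 and -0.11) and RRP12 (-0.26, -0.13 and -0.43) had the highest means.

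Metabolic and growth targets were mostly lower. Of the 29 kept of 30, 8 were called lower in Claret, 7 in eGFP, 10 in Violet, where 6.72%, 7.64% and 6.91% of all genes were. In each library 0 were called higher, where 11.2%, 11.9% and 11.6% of all genes were. The median was -0.67, -0.74 and -0.71. With the test alone 24 were lower in each library, against 35.5%, 36.1% and 34.9% of all genes. By that rule 3, 3 and 2 were higher, against 33.3%, 33.8% and 34.5%. TFRC, the transferrin receptor, was lowest, with 10281 (Bulk), 1767 (Claret), 1609 (eGFP) and 1490 (Violet) reads (-2.65, -2.69 and -2.78). NME1, a nucleoside diphosphate kinase, was next by the mean of the 3 ratios, with 930, 348, 268 and 289 reads (-1.52, -1.80 and -1.68). SHMT2, the mitochondrial serine hydroxymethyltransferase, lay at 0.40, 0.31 and 0.39 and SLC29A2, a nucleoside transporter, at 0.26, 0.55 and 0.32. The gene not kept was IPO4, with 4 to 24 reads.

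Cell-cycle targets were the lowest list. Of the 10 kept of 11, 9 were called lower in each library, against 6.72%, 7.64% and 6.91% of all genes, with a median of -2.34, -2.59 and -2.45, and CDK4 was the gene not called (-0.87, -0.93 and -0.90). CDC25A, a phosphatase that activates cyclin-dependent kinases, had 712 (Bulk), 111 (Claret), 68 (eGFP) and 100 (Violet) reads (-2.77, -3.36 and -2.81). E2F2 had 237, 44, 17 and 34 reads (-2.48, -3.67 and -2.73), and TERT, the catalytic subunit of telomerase, 117, 35, 43 and 43 (-1.79, -1.42 and -1.40). CCND2 had 0 reads in all libraries. The proliferation markers MKI67 (-2.87, -3.31 and -2.89) and TOP2A (-2.17, -2.53 and -2.09) were lower by a like amount, and the part of slow division itself in the lower level of these targets was not tested.

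Of 8 genes known to be repressed by MYC, 6 were kept, and 2 were called higher in each library, where 11.2%, 11.9% and 11.6% of all genes were, with a median of 0.39, 0.48 and 0.51. GADD45A, a stress-response gene, had 418 (Bulk), 1349 (Claret), 1228 (eGFP) and 1088 (Violet) reads and was called in all 3 (1.58, 1.54 and 1.38). CDKN1A, the gene of the CDK inhibitor p21, was called in Claret and eGFP and stayed under 2-fold in Violet (1375 reads in Bulk, 3085, 3233 and 2395; 1.06, 1.22 and 0.80). The other call in Violet was NDRG1, a stress-responsive gene named here after its values were seen (0.64, 0.85 and 1.28). CEBPA (-0.24, 0.04 and 0.08) and CCNG2 (0.13, -0.08 and 0.22) had the lowest means of the 3 ratios. CDKN2B had 0 reads in every library and NDRG2 0 to 9.

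The 2 targets of MLXIP and MLX that were followed were far higher, while MLXIP and MLX themselves were lower. MLXIPL, the weakly expressed paralog of MLXIP that also pairs with MLX, was higher (2.14, 2.37 and 2.17). TXNIP, an arrestin-like protein that limits glucose uptake, had 1657 (Bulk), 26000 (Claret), 27931 (eGFP) and 19542 (Violet) reads, with log2 ratios of 3.86, 4.06 and 3.56. Its paralog ARRDC4 had 60, 418, 502 and 364 reads and log2 ratios of 2.65 (interval 2.30 to 3.11), 3.01 (2.66 to 3.46) and 2.56 (2.20 to 3.02). Both were called in all 3 libraries, where 11.2%, 11.9% and 11.6% of all genes were called higher. These 2 genes were chosen with earlier results of these data known. The activity of MLXIP and the entry of the protein into the nucleus were not measured here.

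**Figure D5:**
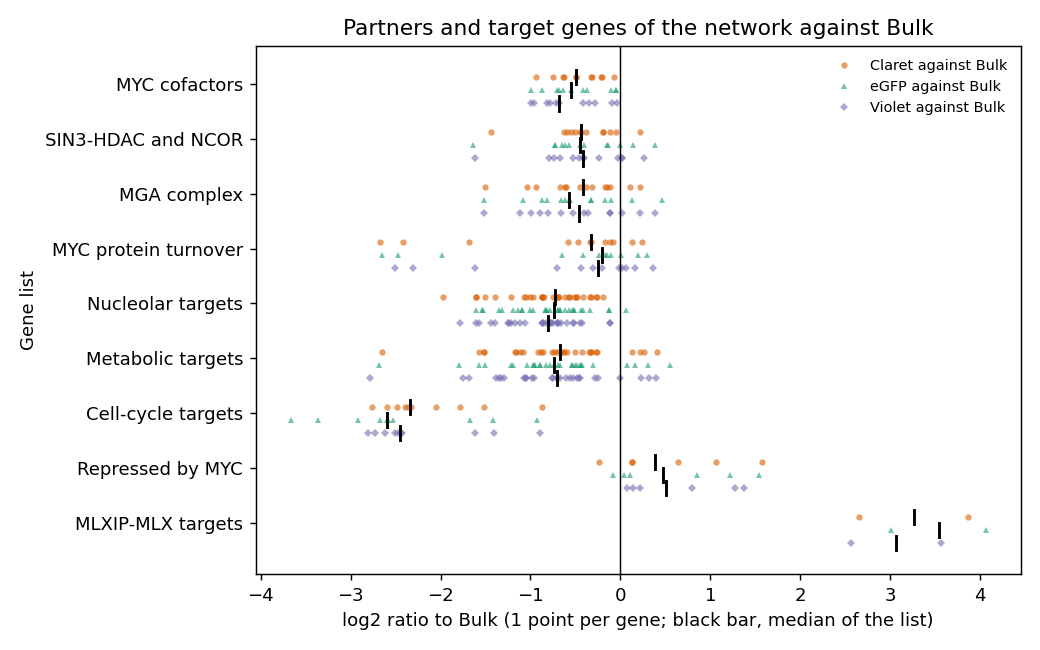
Log2 ratio to Bulk (x axis) of each gene kept in 9 lists of partners and targets, 1 point per gene and library, with the median of each list as a black bar. Medians of the activated target lists lie from -2.59 (cell-cycle targets in eGFP) to -0.67 (metabolic targets in Claret), those of genes repressed by MYC between 0.39 and 0.51, and TXNIP and ARRDC4 between 2.56 and 4.06.

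The genes whose 3 ratios to Bulk lay nearest those of MYC were searched among 9754 protein-coding genes with a mean of at least 10 CPM. They were ZFP28, STXBP2, ZNF133, ZNF766 and TPBG, with a root mean square difference from MYC of 0.024 to 0.030 on the log2 scale over 3 libraries. In all, 185 of these genes lay within 0.1, so the pattern is shared by many genes. Nearest to MXD1 were FCHSD1 and ZKSCAN1, both at 0.023, and 100 genes lay within 0.1.

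The 3 slow-cycling libraries differed little from each other in these genes. No network gene was called at 2-fold or at 1.5-fold between any pair of them. Of all genes kept, 0.315% were higher and 0.446% lower at 2-fold in Claret against eGFP (0.802% and 0.967% at 1.5-fold). The shares were 0.219% and 0.583% in Claret against Violet (0.603% and 1.35% at 1.5-fold), and 0.288% and 0.727% in eGFP against Violet (0.74% and 1.62%). By the exact test alone, MYC was higher in Claret than in Violet by 0.15 (interval 0.08 to 0.22; adjusted p = 3.14e-04), where 8.97% of all genes were higher by that rule. It was also higher in eGFP than in Violet by 0.11 (0.04 to 0.18; adjusted p = 0.0219), where 8.7% of all genes were, and this difference no longer passed by library size only (0.087) or with the GC correction (0.085). MXD4 was lower in Claret than in Violet (-0.17, interval -0.29 to -0.05; adjusted p = 0.0363), which did not pass with DESeq2 size factors (-0.16) or with no filter (-0.16). MLXIP was also lower there (-0.21, -0.30 to -0.11; adjusted p = 2.31e-04), where 8.43% of all genes were lower. It was lower in Claret than in eGFP too (-0.17, -0.27 to -0.08; adjusted p = 0.00466), against 6.42% of all genes, and 0 network genes were higher there, against 6.17%. Between eGFP and Violet 0 were lower, against 8.46%. The remaining differences among the 10 genes did not pass the exact test.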

How the data were processed

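RNA-seq of 4 MDA-MB-231 libraries was analysed from tables deposited by the authors. Per the file headers and values, the deposited count table holds whole-number read counts per gene with no normalization. FPKM values in the other deposited table derive from these counts divided by gene length and by library totals set by the authors, which correspond to 96.9% to 103.5% of the summed counts. The submitters' processing notes name HISAT2 2.0.5 and featureCounts 1.5.0-p3. The genome build, strand use and the treatment of multi-mapped reads are not given in the sources used here. Coordinates of the 10 genes in the table equal those of GENCODE 29 (GRCh38).

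The 14585 genes with a mean of at least 1 CPM were kept, scaled by TMM (edgeR 4.0.16, R 4.3.3), and log2 ratios used a prior count of 2. With 1 library per group, edgeR's quasi-likelihood test lacks residual degrees of freedom. Reads of 2 libraries were therefore compared by an exact conditional binomial test (two-sided), adjusted by Benjamini-Hochberg over all genes kept, with 95% Clopper-Pearson intervals of the ratio (scipy 1.17.1). A gene was called at an adjusted p under 0.05 and at least 2-fold. MYC contrasts are odds ratios of 4 read counts with exact conditional intervals, and FPKM intervals are exact Poisson intervals. Reads carry no molecular identifiers, so all intervals cover counting error only. The test was checked on simulated Poisson counts that held no variation between cultures or sorts, so that check covers counting error only.

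The members, gene lists and tests were chosen with earlier results of these data known. Named genes are the members, 3 family genes, TXNIP and ARRDC4, the markers, the 2 highest and 2 lowest genes of each list by mean ratio, complex genes called in all 3 libraries, and the genes nearest to MYC and to any called member. The alternatives were 2 other scalings, 2 filters, another prior count, FPKM, a GC correction, the treatment field, and 2 other calls.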

Additional observations from a re-analysis of the deposited data

Results flagged for a closer look

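The differences between slow-cycling libraries are listed because a ratio between 2 of these libraries is also the difference of their ratios to Bulk. With 1 library per group, the exact test on reads compares 2 libraries and not the conditions behind them. Among the network genes, MYC differed by 0.15 (log2) between Claret and Violet and by 0.11 between eGFP and Violet, higher in the first-named library in each case, though the second of these did not pass by library size only (0.087) or with the GC correction (0.085). MXD4 differed by -0.17 between Claret and Violet, which did not pass with DESeq2 size factors (-0.16) or with no filter (-0.16). MLXIP differed by -0.17 between Claret and eGFP and by -0.21 between Claret and Violet, so Claret was the lowest slow-cycling library for both MXD4 and MLXIP. Of the partner and target genes, E2F2 was higher in Claret than in eGFP by 1.19, from 44 and 17 reads, and MYCL was higher in eGFP than in Violet by 1.02, from 45 and 21 reads. Another 44 differences in 24 of the 56 genes looked at passed the test at sizes of 0.083 to 0.60, under the 2-fold limit. Part of these 56 genes were picked by their ratios to Bulk in these same data. Of all genes kept, 6.17% were higher and 6.42% lower by the test in Claret against eGFP. The shares were 8.97% and 8.43% in Claret against Violet, and 8.7% and 8.46% in eGFP against Violet.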

How the results depend on the processing

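With groups from the titles, all 210 ratios of the 10 genes to Bulk kept their direction over the 7 alternatives that change values. Of these ratios, 3 lost the test: MAX in Violet by library size only, and MAX in Claret and Violet with the filter at 10 CPM. On log2(FPKM + 1) no test was run, so those ratios could not lose the test. Between slow-cycling libraries, MYC in eGFP against Violet lost it by library size only (0.087) and with the GC correction (0.085), and MXD4 in Claret against Violet with DESeq2 size factors (-0.16) and no filter (-0.16), while MXD4 in Claret against eGFP passed with the filter at 10 CPM (-0.17). MYC ranged from 0.80 to 0.90 in Claret, 0.75 to 0.86 in eGFP and 0.62 to 0.76 in Violet. Because MXD1 and MXI1 lie at the 2-fold limit, the number of network genes called higher depended on the setting. It was 1 in Claret and 1 in Violet by library size only and with the GC correction, 1 and 2 with the filter at 10 CPM, and 0 in eGFP on log2(FPKM + 1). Of all 14585 genes, 1714 and 1812 were higher in Claret and Violet by library size only, and 1584 and 1615 with the GC correction. With the filter at 10 CPM 721 and 724 of 10112 genes were, and on log2(FPKM + 1) 633 of 14585 in eGFP. At 1.5-fold the network genes called higher numbered 4, 5 and 5 in Claret, eGFP and Violet, with 1 lower in Violet. Nucleolar targets called lower then numbered 19, 20 and 24 and metabolic targets 18, 17 and 18. Of all genes, 19.8%, 20.5% and 20.8% were higher and 16.7%, 17.9% and 16.6% lower at 1.5-fold. The median over the 6 antagonists of the MYC ratio minus the antagonist ratio was 0.29 for Claret, 0.07 for eGFP and -0.03 for Violet. On log2(FPKM + 1) and with the GC correction it rose to 0.16 and 0.17 in eGFP and turned to 0.066 and 0.072 in Violet. The added 1 FPKM shrinks ratios of low-level genes most, and each antagonist lay below MYC in every library.

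Near-0 differences between slow-cycling libraries changed sign. MAX between Claret and Violet was -0.020 by library size only and -0.0086 with the filter at 10 CPM. Between eGFP and Violet, MXD4 was 0.0075 with DESeq2 size factors, 0.0021 with no filter and 0.014 on log2(FPKM + 1), MLX was 0.0057, 0.00027 and 0.013 in the same order, and MNT was -0.019 with the GC correction. The cause of these changes was not tested.

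Groups from the treatment field, which make the library titled Violet the ungated one, turned most results. Claret (titled Bulk) against Bulk then gave -0.68 for MYC, 0.22 for MAX, -0.97 for MXD1, -0.94 for MXI1, 0.65 for MXD3, -0.82 for MXD4, -0.59 for MNT, 0.24 for MGA, 0.40 for MLX and 0.22 for MLXIP. The eGFP ratios that turned were 0.0019 for MAX, -0.15 for MXD1, 0.12 for MXD3, -0.17 for MXD4 and -0.15 for MNT, and those of Violet were 0.049 for MAX, -0.037 for MXI1, 0.11 for MXD3 and -0.0047 for MXD4. Between Claret and eGFP the reversed values were -0.83 for MYC, 0.22 for MAX, -0.98 for MXI1, 0.32 for MGA, 0.47 for MLX and 0.43 for MLXIP. Between Claret and Violet they were -0.79 for MYC, -0.91 for MXI1, 0.30 for MGA, 0.41 for MLX and 0.25 for MLXIP. Between eGFP and Violet they were -0.047 for MAX, -0.19 for MXD1, 0.078 for MXI1 and -0.19 for MNT. The antagonist medians became 0.026 in Claret, 0.27 in eGFP and 0.092 in Violet. Called higher in Claret were 11 nucleolar, 10 metabolic and 9 cell-cycle targets, and 0 of each were called lower. Of all 14585 genes kept, 1008 were called higher and 1696 lower in that comparison. In eGFP 1 nucleolar target and 0 metabolic or cell-cycle targets were called lower, and in Violet 0 of each. Of all genes, only 85 were called lower in eGFP and 106 in Violet. Network genes called higher in eGFP numbered 0, where 32 of all genes were. With the test alone 1 network gene was higher and 2 lower in eGFP, where 8.97% and 8.43% of all genes were. By that rule 1 was higher and 0 lower in Violet, where 8.7% and 8.46% of all genes were. The columns of the tables carry the names in the titles. The library titled Bulk had the most reads of MKI67 (6778, against 689 to 995) and of TOP2A (14220, against 2487 to 3399).

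No paired analysis was possible because each group is 1 library and the labels carry no replicate numbers. Leaving out a library was not run, since it removes a group. With no replicates, intervals cover counting error, and variation between cultures or sorts was not measured. Genes with few reads, such as MYCL, have wide intervals.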
